A study of Mus musculus with 8 samples.

Results

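The genes described here encode 10 enzymes that make or break down prostaglandins: Pla2g4a, Ptgs1, Ptgs2, Ptges, Ptges2, Ptges3, Ptgis, Ptgds, Hpgds and Hpgd. They were taken by symbol from the deposited table of 19884 genes. All 10 were found, each in a single row, and all 10 were among the 16074 genes that passed the filter on low counts. The libraries came from untreated wild-type C57BL/6J female mice, 6 to 10 weeks old, mated with fertile males and killed on gestation day 4, counting the day of the vaginal plug as day 1. Whole maternal brain gave 4 libraries and whole uterus gave 4, from total RNA after removal of ribosomal RNA. The uterus of this day carries unattached blastocysts, which were looked for in a flush of the uterus to establish pregnancy. No other day, virgin animal or treatment was measured, so the only contrast is that of the organs.

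Prostaglandins are short-lived lipid signals made from arachidonic acid. Cytosolic phospholipase A2 frees arachidonic acid from membranes, the cyclooxygenases turn it into prostaglandin H, and terminal synthases convert this unstable product to prostaglandin E, D, I (prostacyclin) or F. The 15-hydroxy dehydrogenase then inactivates prostaglandins. In the mouse uterus the pathway is known for its part in blastocyst attachment and the vascular response of the implantation site, and in brain for fever, sleep and blood flow.

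Library totals were 35394603 to 47790178 counts. Levels are in CPM, the count scaled to a common library size after TMM adjustment, and 3 counts, used as the upper limit for a gene without counts, came to 0.0692 to 0.0810 CPM in a library. The labelled organs matched their markers. Neuronal markers (Snap25, Syt1, Rbfox3, Slc17a7 and Gad1) summed to 5484 to 5644 CPM in brain and 2.19 to 4.75 CPM in uterus, and stromal markers to 82.0 to 86.9 CPM in brain and 7806 to 9846 CPM in uterus. Of the 4 blastocyst markers, Pou5f1 and Cdx2 had 0 counts in all uterus libraries, Nanog had 9 counts over the 4, and Elf5 was at 0.974 CPM in uterus and 0.498 in brain (not called). The uterine libraries were uneven in the sum of gland markers, at 223, 1191, 378 and 77.7 CPM in libraries 1 to 4. Most of the mean sum of 467 CPM came from Spink1, Prss28 and Prss29 (136, 75.8 and 183 CPM). Foxa2 (8.96, 12.3, 13.6 and 8.86 CPM) and Lif (33.6, 39.9, 53.1 and 33.4 CPM) varied less in uterus libraries 1 to 4. Cxcl15 was highest in uterus library 4 (16.6, 18.9, 25.2 and 27.6 CPM). In whole organs, fewer cells of a type and less RNA per cell cannot be told apart. The labels do not say whether a uterus and a brain came from the same mouse.

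Sequence from 3 promoters is shown because the cyclooxygenase genes Ptgs1 and Ptgs2 differed between the organs in opposite directions, and because Pla2g4a lies next to Ptgs2 on chromosome 1. The 2 neighbours start 138741 bases apart on opposite strands and point away from each other, with 3 annotated genes between them (Gm19136, Gm44329 and Ptgs2os). Each stretch runs 5′ to 3′ from 250 bases before to 30 bases after the start that RefSeq gives on GRCm38.p6. Capitals mark matches on either strand to 6 motifs: the TATA box TATAAA, the E-box CACGTG, the cyclic AMP element core TGACG, the GC box GGGCGG, the CCAAT box and the oestrogen element core GGTCA.
Ptgs1, chr2:36230176-36230455, plus strand: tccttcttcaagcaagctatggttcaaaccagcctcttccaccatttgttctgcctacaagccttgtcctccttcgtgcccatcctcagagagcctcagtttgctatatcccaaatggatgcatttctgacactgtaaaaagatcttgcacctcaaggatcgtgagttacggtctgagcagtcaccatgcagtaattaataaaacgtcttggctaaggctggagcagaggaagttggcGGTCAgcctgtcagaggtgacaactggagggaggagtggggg
Ptgs2, chr1:150099781-150100060, plus strand: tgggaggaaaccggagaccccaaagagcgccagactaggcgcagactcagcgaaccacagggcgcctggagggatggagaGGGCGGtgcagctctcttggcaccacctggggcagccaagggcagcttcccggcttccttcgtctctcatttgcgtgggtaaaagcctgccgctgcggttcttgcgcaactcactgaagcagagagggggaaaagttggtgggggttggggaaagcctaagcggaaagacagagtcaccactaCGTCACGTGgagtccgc
Pla2g4a, chr1:149961261-149961540, minus strand: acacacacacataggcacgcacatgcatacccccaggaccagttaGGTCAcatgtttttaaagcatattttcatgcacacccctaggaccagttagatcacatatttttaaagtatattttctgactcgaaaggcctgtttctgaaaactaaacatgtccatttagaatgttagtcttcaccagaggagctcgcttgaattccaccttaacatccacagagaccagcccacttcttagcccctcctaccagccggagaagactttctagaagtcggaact

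The Ptgs2 stretch held a GC box at -170 to -165, and after the RefSeq start an E-box at 17 to 22 that overlaps a cyclic AMP core on the other strand at 14 to 18. Of 32851 mouse promoters in the same window, 6.79% held the E-box, 19.9% the cyclic AMP core and 34.7% the GC box. The Ptgs1 stretch held GGTCA at -12 to -8, and that of Pla2g4a at -205 to -201, a motif found in 38.5% of all promoters. RefSeq gives Pla2g4a a further start inside the gene, which is not shown. TATAAA, found in 13.1% of promoters, was in none of the 3 stretches. The table of promoters had an entry for 9 of the 10 genes, all but Ptgis. A match is only a description of letters.

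The comparison of the organs asks which enzymes of the pathway stand higher in the day 4 uterus and which in the brain of the same stage. The uterus stood higher for arachidonate release (Pla2g4a), the constitutive cyclooxygenase (Ptgs1), inducible prostaglandin E synthase (Ptges), prostacyclin synthase (Ptgis), the haematopoietic prostaglandin D synthase (Hpgds) and the inactivating dehydrogenase (Hpgd). Ptges3 also stood higher there. The brain stood higher for the lipocalin-type prostaglandin D synthase (Ptgds), by far the largest difference of the set, for Ptges2, and for the inducible cyclooxygenase (Ptgs2), whose call depended on the scaling and on 1 library. Of the 10 genes, 7 were called higher in uterus and 3 higher in brain by the edgeR quasi-likelihood test at an adjusted p of 0.05. Over all tested genes 43.5% were called higher in uterus and 43.6% higher in brain, so that being called is common between these organs. Counts of called marker genes given below are to be read against the same shares. Against a 2-fold change, 7 were higher in uterus and 1, Ptgds, in brain, beside 23.5% and 25.8% of all tested genes. In 7 genes every uterus library lay above every brain library, and in 2 the reverse held, beside 42.0% of all tested genes in each direction (42.0% higher in uterus, 42.0% higher in brain). The median log2 fold change, uterus over brain, was 1.56 for the 10 genes and 0.012 for all tested genes.

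**Figure D1:**
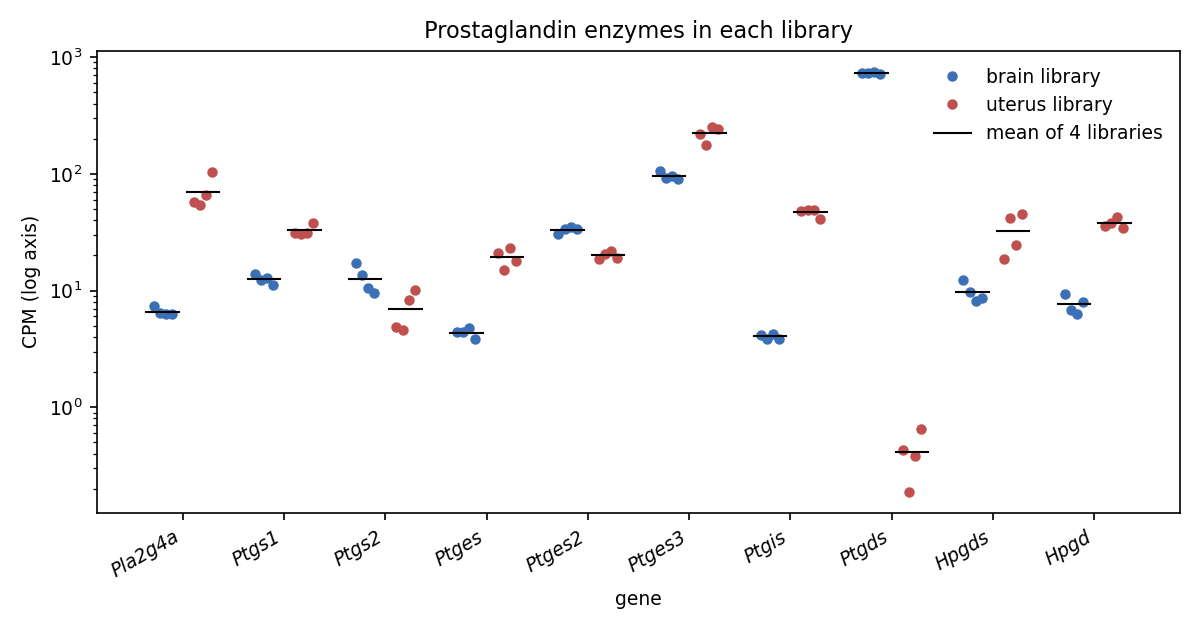
Each point is 1 library, with CPM on a log axis for the 10 genes and a line at the mean of the 4 libraries of an organ. Ptgs2 is the gene whose brain and uterus points overlap, and Ptgds spans the widest range, from 0.188 CPM in a uterus library to 749.5 CPM in a brain library.

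**Figure D2:**
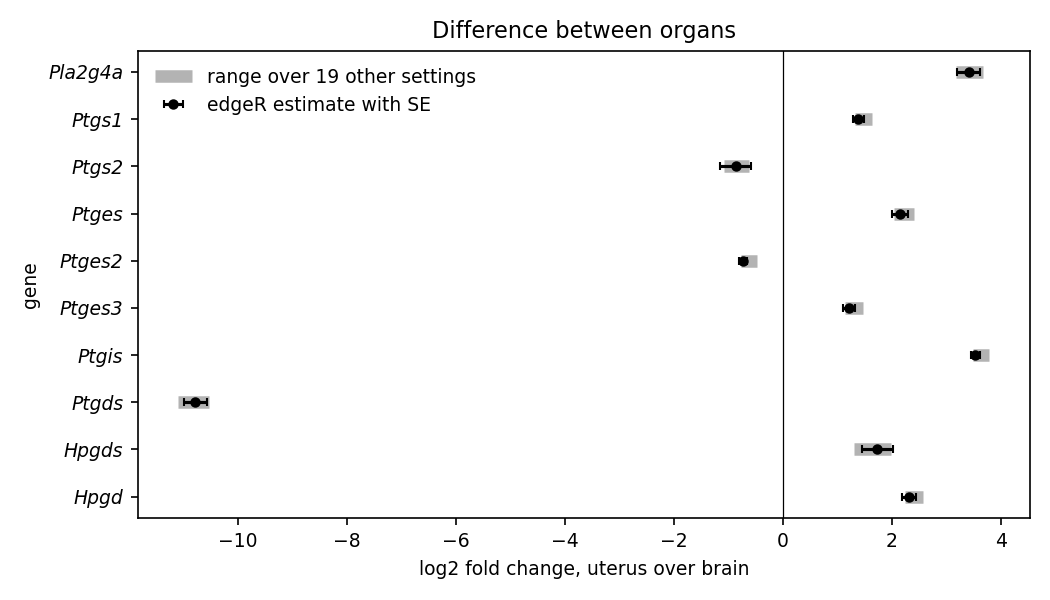
The log2 fold change (uterus over brain) of each gene is drawn as a point with its standard error, over a grey bar for the range across 19 other settings. No bar crosses 0, and that of Ptgs2 (-1.08 to -0.61) lies near that of Ptges2 (-0.77 to -0.47).

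Pla2g4a, the cytosolic phospholipase A2 that frees arachidonic acid (ENSMUSG00000056220, GRCm38 chromosome 1, 149829618 to 149961290, minus strand), stood higher in uterus. Brain libraries 1 to 4 held 7.37, 6.39, 6.28 and 6.24 CPM, and uterus libraries 1 to 4 held 57.0, 53.5, 66.1 and 104 CPM. The organs did not overlap, and uterus library 4 stood above the other uterus libraries. The means were 6.57 ± 0.535 in brain and 70.1 ± 23.1 in uterus (SD, n = 4), a log2 fold change of 3.42 ± 0.21 (SE, edgeR adjusted p = 1.0e-07), and 3.18 without uterus library 4. That library had the lowest sum of gland markers, though the highest Cxcl15 of that list. It also had the highest sum of epithelial markers (742 CPM against 626.5 to 675 in the other 3). The part of glands or epithelium in the Pla2g4a value was not tested.

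The pair of cyclooxygenases differed in opposite directions. Ptgs1, the constitutive isoenzyme (ENSMUSG00000047250, chromosome 2, 36230426 to 36252272, plus strand), held 13.8, 12.3, 12.7 and 11.3 CPM in brain libraries 1 to 4 and 31.2, 30.6, 31.3 and 38.2 CPM in uterus libraries 1 to 4. Every uterus library stood above every brain library. The means were 12.5 ± 1.06 and 32.8 ± 3.59 CPM (SD, n = 4), a log2 fold change of 1.39 ± 0.10 (SE, edgeR adjusted p = 2.2e-07). Platelets carry Ptgs1. Of 5 platelet markers, 2 (Pf4 and Itga2b) were higher in uterus, 1 (Gp9) was higher in brain and 2 did not pass. Their sums were 5.08 to 6.23 CPM in brain and 15.4 to 18.97 in uterus, and their part in the Ptgs1 level was not tested. Of the exon bases of Ptgs1, 148 are shared with Gm43621 on the opposite strand.

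Ptgs2, the inducible isoenzyme (ENSMUSG00000032487, chromosome 1, 150100031 to 150108227, plus strand), held 17.1, 13.7, 10.4 and 9.44 CPM in brain libraries 1 to 4. Uterus libraries 1 to 4 held 4.83, 4.63, 8.24 and 10.0 CPM. The organs overlapped, since uterus library 4 lay above brain library 4, and both organs were spread widely. The means were 12.7 ± 3.46 and 6.93 ± 2.64 CPM (SD, n = 4), with a log2 fold change of -0.87 ± 0.28 (SE, edgeR adjusted p = 0.0146). The call ended without brain library 1 (-0.68, adjusted p = 0.0533), with upper-quartile scaling (-0.61, adjusted p = 0.0601) and with library-size scaling (-0.61, adjusted p = 0.0594).

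The balance of the isoenzymes can be read within a library, free of scaling between libraries. The log2 ratio of Ptgs1 to Ptgs2 counts was -0.30, -0.15, 0.29 and 0.25 in brain libraries 1 to 4 and 2.69, 2.72, 1.93 and 1.93 in uterus libraries 1 to 4. The uterine ratio was higher by 2.29 (4.90-fold), and the organs did not overlap (exact permutation test, two-sided, p = 0.0286, the smallest that 4 against 4 libraries allow, and 0.0357 adjusted over the 5 ratios tested). Per kilobase of exon, Ptgs1 made up 54.4 ± 5.05% of the 2 cyclooxygenase genes in brain and 85.1 ± 3.88% in uterus (SD, n = 4).

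Of the prostaglandin E synthases, 2 stood higher in uterus and 1 in brain. Ptges, the membrane-bound inducible synthase that works with the cyclooxygenases (ENSMUSG00000050737, chromosome 2, 30889471 to 30929863, minus strand), held 4.43, 4.38, 4.73 and 3.85 CPM in brain libraries 1 to 4. Uterus libraries 1 to 4 held 21.1, 14.9, 23.3 and 17.8 CPM. The organs were well separated, at 4.35 ± 0.365 and 19.3 ± 3.71 CPM (SD, n = 4), with a log2 fold change of 2.15 ± 0.15 (SE, edgeR adjusted p = 2.5e-07).

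Ptges2, another membrane-associated synthase (ENSMUSG00000026820, chromosome 2, 32395896 to 32405772, plus strand), held 30.5, 33.9, 35.3 and 33.5 CPM in brain libraries and 18.8, 20.4, 22.0 and 19.2 CPM in uterus libraries, in order of number. Every brain library stood above every uterus library. The means were 33.3 ± 2.01 and 20.1 ± 1.43 CPM (SD, n = 4), and the log2 fold change was -0.73 ± 0.07 (SE, edgeR adjusted p = 3.9e-06). It did not pass the test against a 2-fold change. Under upper-quartile and under library-size scaling the median over all genes was 0.27 in place of 0.012, and Ptges2 was still called higher in brain with each of them.

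Ptges3 encodes the cytosolic prostaglandin E synthase, also known as p23, a cochaperone of HSP90 that acts on steroid receptors (ENSMUSG00000071072, chromosome 10, 128058954 to 128077272, plus strand). It held 106, 92.9, 94.9 and 90.5 CPM in brain libraries 1 to 4 and 220.0, 175, 254 and 243 CPM in uterus libraries 1 to 4. All uterus libraries lay above all brain libraries, with means of 96.2 ± 7.01 and 223 ± 34.8 CPM (SD, n = 4) and a log2 fold change of 1.21 ± 0.11 (SE, edgeR adjusted p = 2.2e-06). Its transcripts match the processed pseudogene Ptges3-ps without a mismatch over 480 bases, and how reads shared by such copies were counted is not given in the sources used here, so its level is uncertain.

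Within a library the makeup of the E synthases differed between the organs. The log2 ratio of Ptges to Ptges2 was -3.11 to -2.78 in the brain libraries and -0.45 to 0.17 in the uterus libraries. It was higher in uterus by 2.86 (7.26-fold; exact permutation test, two-sided, p = 0.0286, adjusted p = 0.0357). By counts, then, Ptges was far below Ptges2 in brain and close to it in uterus. Ptges and Ptges2 each separated the organs fully, in opposite directions, so the p-value of their ratio was fixed beforehand and adds no evidence.

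Prostacyclin synthase, Ptgis, which makes the vasodilator prostacyclin (ENSMUSG00000017969, chromosome 2, 167191805 to 167240604, minus strand), had the largest log2 fold change toward uterus of the 10 genes. Brain libraries 1 to 4 held 4.16, 3.87, 4.27 and 3.85 CPM, and uterus libraries 1 to 4 held 47.7, 49.4, 48.8 and 41.0 CPM. Both organs were even between animals, at 4.04 ± 0.208 and 46.7 ± 3.85 CPM (SD, n = 4), with a log2 fold change of 3.53 ± 0.08 (SE, edgeR adjusted p = 7.8e-11). Endothelial markers, from cells that make prostacyclin, summed to 85.8 to 96.6 CPM in brain and 694 to 784 CPM in uterus, with 4 of 4 higher in uterus. Smooth muscle markers summed to 34.7 to 42.5 and 4713 to 5539 CPM, with 5 of 5 higher in uterus. The part of either in the Ptgis value was not tested. Of the exon bases of Ptgis, 156 are shared with 1110018N20Rik on the opposite strand. The log2 ratio of Ptgis to Ptges was -0.18 to 0.00 in brain and 1.06 to 1.73 in uterus, higher in uterus by 1.40 (exact permutation test, two-sided, p = 0.0286, adjusted p = 0.0357).

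The 2 prostaglandin D synthases catalyse the same reaction and were divided between the organs. Ptgds, the lipocalin-type enzyme secreted into cerebrospinal fluid (ENSMUSG00000015090, chromosome 2, 25466709 to 25470046, minus strand), held 729, 730.4, 749.5 and 722 CPM in brain libraries 1 to 4. In uterus it held 0.428, 0.188, 0.380 and 0.653 CPM, from 17, 8, 15 and 28 counts. The means were 733 ± 11.8 and 0.412 ± 0.191 CPM (SD, n = 4), a 1777-fold difference with a log2 fold change of -10.78 ± 0.21 (SE, edgeR adjusted p = 2.5e-11). In brain Ptgds ranked 120 among the 19884 genes by CPM.

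Uterine Ptgds was 0.0563% of its brain level. The summed neuronal markers in uterus were 0.0551% of their brain level, those of oligodendrocytes 0.227%, of astrocytes 0.439%, of choroid plexus 1.28% and of leptomeninges 6.25%. All 5 lists had every member called higher in brain, and Otx2 of the choroid plexus list had 0 counts in uterus. Uterus library 4 had the highest Ptgds. It also had the highest sums of neuronal markers (4.75 CPM against 2.19 to 2.70 in the other 3), of astrocyte markers (18.2 against 9.44 to 12.9) and of leptomeningeal markers (5.36 against 2.19 to 3.20). It had the lowest sum of choroid plexus markers (4.85 against 10.1 to 18.5), and the oligodendrocyte sum was 16.6 against 14.6 to 16.9. Single genes made up most of some mean uterine sums. They were Aldh1l1 (8.87 of 13.0 CPM, astrocytes), Foxc1 (2.52 of 3.48, leptomeninges) and Ttr (10.3 of 10.9, choroid plexus). Of the neuronal list, Snap25, Syt1, Slc17a7 and Gad1 were highest in uterus library 4, but Rbfox3 was lowest there (0.932 against 1.01 to 1.75 CPM). The part of RNA from brain in the few uterine Ptgds counts was not tested.

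Hpgds, the glutathione-dependent enzyme of mast cells and other blood-derived cells (ENSMUSG00000029919, chromosome 6, 65117293 to 65144908, minus strand), held 12.4, 9.73, 8.15 and 8.63 CPM in brain libraries 1 to 4. Uterus libraries 1 to 4 held 18.5, 41.7, 24.4 and 44.9 CPM. The organs did not overlap, and within the uterus libraries 2 and 4 stood above 1 and 3. The means were 9.72 ± 1.88 and 32.4 ± 12.9 CPM (SD, n = 4), with a log2 fold change of 1.74 ± 0.28 (SE, edgeR adjusted p = 0.000175) and of 1.30 when brain library 1 and uterus libraries 2 and 4 were left out.

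Cells that carry Hpgds were followed by their markers. Those of mast cells (Cma1, Cpa3, Mcpt4, Tpsb2, Ms4a2 and Fcer1a) summed to 5.89, 9.03, 21.1 and 2.14 CPM in uterus libraries 1 to 4, lowest in the library where Hpgds was highest. In brain they summed to 0.236 to 0.646 CPM, with Fcer1a at 0 counts. All 4 tested mast cell markers were higher in uterus. Macrophage and microglia markers summed to 169, 167, 180.3 and 155 CPM in uterus libraries 1 to 4 and to 192 to 221 CPM in brain, with 4 of 7 higher in uterus and 3 (Csf1r, Cx3cr1 and P2ry12) higher in brain. Tmem119 alone made up 67.8 of the mean 168 CPM of the macrophage and microglia list in uterus, and 18.4 of 203 CPM in brain. The part of mast cells, macrophages or microglia in the Hpgds values was not tested.

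The log2 ratio of Ptgds to Hpgds counts was 5.88 to 6.52 in the brain libraries and -7.70 to -5.40 in the uterus libraries. The difference, uterus minus brain, was -12.54 (exact permutation test, two-sided, p = 0.0286, adjusted p = 0.0357). Which of the D synthases held more counts thus differed between the organs in all 8 libraries. Ptgds and Hpgds each separated the organs fully, in opposite directions, so here too the p-value of the ratio adds no evidence.

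Hpgd, the 15-hydroxyprostaglandin dehydrogenase that inactivates prostaglandins (ENSMUSG00000031613, chromosome 8, 56294585 to 56321043, plus strand), held 9.39, 6.80, 6.24 and 7.92 CPM in brain libraries 1 to 4. It held 35.9, 38.2, 42.8 and 34.2 CPM in uterus libraries 1 to 4. The organs were separate and the uterus libraries close together, at 7.59 ± 1.39 and 37.7 ± 3.74 CPM (SD, n = 4), with a log2 fold change of 2.32 ± 0.13 (SE, edgeR adjusted p = 5.0e-08). The log2 ratio of Ptges to Hpgd, a synthase against the breakdown enzyme, was -1.08 to -0.40 in brain and -1.36 to -0.76 in uterus. These ranges overlapped, and the difference of -0.20 did not pass (exact permutation test, two-sided, p = 0.429, adjusted p = 0.429).

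**Figure D3:**
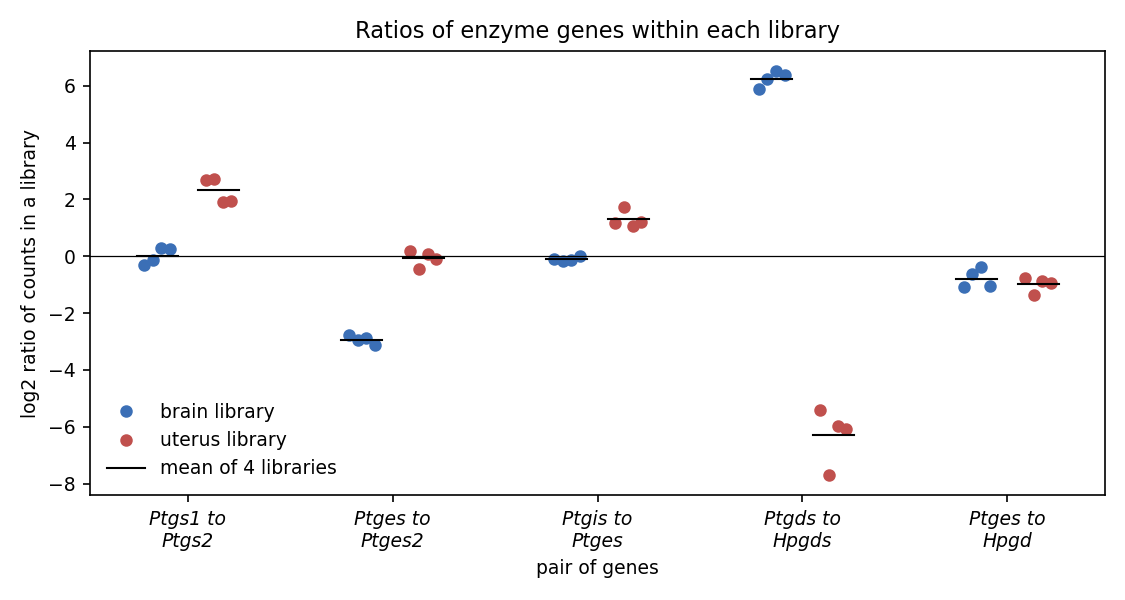
The log2 ratio of counts of a pair of genes is shown for each library, with lines at organ means. Brain and uterus points are apart for 4 pairs and overlap for Ptges to Hpgd, whose means are -0.79 and -0.98.

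Levels of different genes were compared per kilobase of annotated exon. In brain Ptgds was highest at 444 ± 7.15 CPM per kilobase (SD, n = 4), followed by Ptges3 at 43.4 ± 3.16 and Ptges2 at 6.58 ± 0.397. Hpgd, Ptgs1, Ptgs2, Ptgis, Hpgds, Ptges and Pla2g4a followed, from 4.51 down to 1.03 CPM per kilobase. In that order Ptgs1 and Ptgs2, Ptgis and Hpgds, and Ptges and Pla2g4a were neighbours whose library ranges overlapped. In uterus Ptges3 was highest at 100.5 ± 15.7, followed by Hpgd at 22.4 ± 2.22, Ptgis at 18.2 (range 15.99 to 19.2), Pla2g4a at 11.0 ± 3.61 and Ptgs1 at 8.45 ± 0.924 CPM per kilobase. Hpgds, Ptges, Ptges2, Ptgs2 and Ptgds came next, from 5.04 down to 0.25, and the neighbours Ptgis and Pla2g4a, Pla2g4a and Ptgs1, Hpgds and Ptges, and Ptges and Ptges2 overlapped. With the length of the longest transcript, Pla2g4a moved from 11.0 to 20.3 CPM per kilobase in uterus and from 1.03 to 1.90 in brain, and Hpgds from 5.04 to 8.32 and from 1.51 to 2.50. The uterine order stayed the same with that length, while in brain Hpgds passed Ptgis and Pla2g4a passed Ptges.

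**Figure D4:**
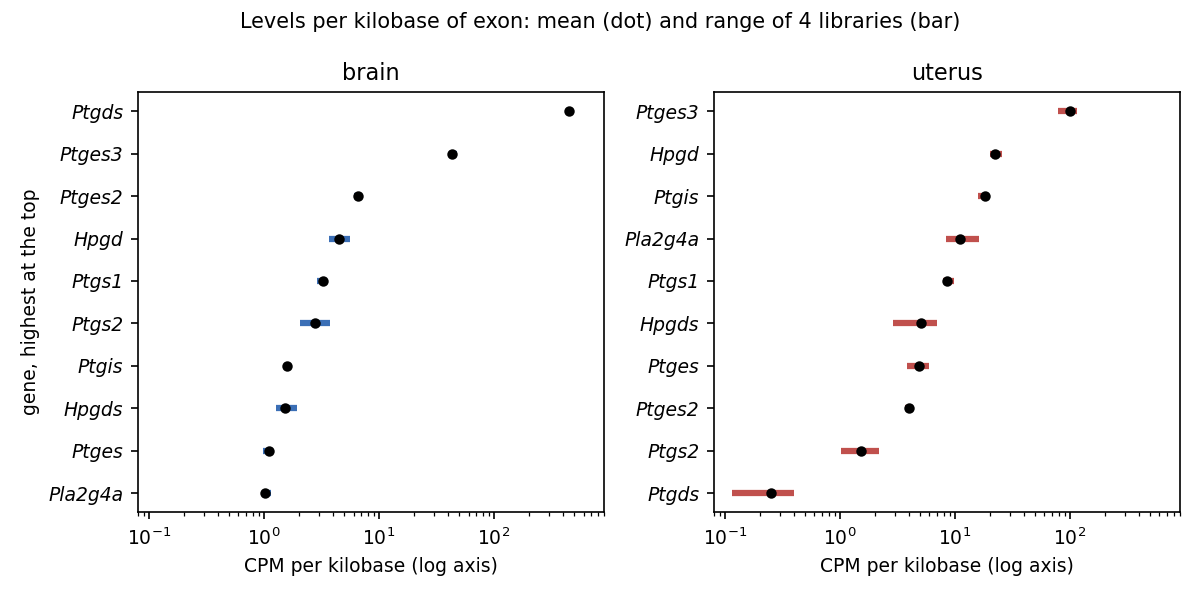
Levels in CPM per kilobase of exon are on a log axis, with genes in order within each organ, the mean as a dot and the range of 4 libraries as a bar. Ptgds is at the top in brain (444) and at the bottom in uterus (0.25).

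Spread between animals separated the genes as well. In uterus the coefficient of variation of CPM was 39.7% for Hpgds, 38.1% for Ptgs2 and 32.9% for Pla2g4a, 46.3% for Ptgds with its few counts, and 7.12% for Ptges2, 8.25% for Ptgis and 9.89% for Hpgd. Among the 500 tested genes nearest in mean CPM, the median was 7.06% for Hpgds, 13.7% for Ptgs2 and 5.72% for Pla2g4a, and 98.6%, 90.0% and 99.0% of those genes varied less. In brain Ptgs2 (27.3%), Hpgds (19.3%) and Hpgd (18.3%) varied most, above 98.2%, 95.2% and 93.6% of their nearest 500 genes. Ptgds varied by 1.61% in brain. Brain library 1 was the highest brain library for Ptgs2, Hpgds, Hpgd, Pla2g4a, Ptgs1 and Ptges3, and of the brain libraries it had the lowest sum of red cell markers (77.7 CPM against 137 to 263 in the other 3). It also had the highest sums of macrophage and microglia markers (221 against 192 to 202) and of endothelial markers (96.6 against 85.8 to 88.1). The part of these cells was not tested. Uterus library 4 was the highest uterus library for Ptgs2, Hpgds, Pla2g4a, Ptgs1 and Ptgds, but the lowest for Ptgis and Hpgd.

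**Figure D5:**
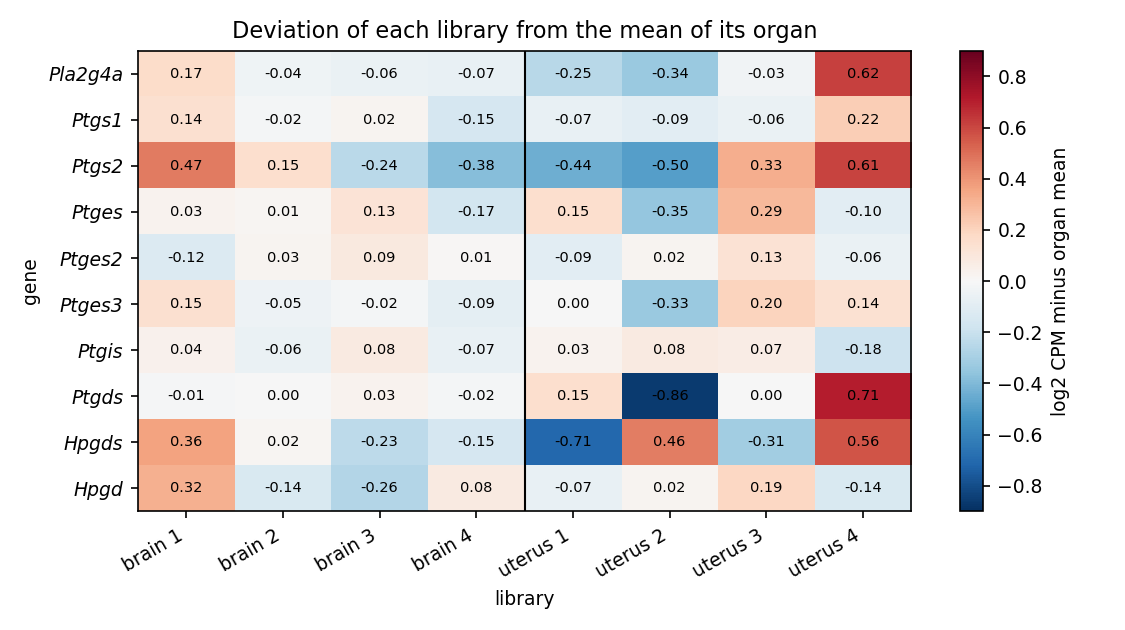
Each cell gives the log2 CPM of a gene in a library minus the mean of that organ (colour from blue, below the mean, to red, above it). Uterus library 4 is at 0.61 for Ptgs2, 0.56 for Hpgds and 0.62 for Pla2g4a, and at -0.18 for Ptgis.

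The counts of other genes of the pathway are to be read against the 43.5% of all tested genes called higher in uterus and the 43.6% called higher in brain. Of 8 other prostanoid synthases and reductases, 5 were higher in uterus, 2 in brain and 1 (Akr1c18, at 1.29 CPM in brain and 1.23 in uterus) did not pass. Akr1b8 and Akr1b7, aldo-keto reductases, were 25.4 ± 2.56 and 2.31 ± 0.337 CPM in uterus against 0.731 ± 0.223 and 0.185 ± 0.130 in brain (SD, n = 4). Fam213b, which encodes a prostaglandin F synthase, was 51.1 ± 2.96 CPM in brain against 7.25 ± 0.523 (log2 fold change -2.82 ± 0.07), and the carbonyl reductase Cbr1 was 46.4 ± 2.82 against 34.8 ± 1.73. The median log2 fold change of the 8 was 1.24.

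Other phospholipases and lipases were counted next. The list is broad, and its counts and median do not measure the release of arachidonic acid. Of 25 phospholipases and lipases beside Pla2g4a, 17 were tested, of which 11 were higher in brain, 2 in uterus and 4 did not pass, beside 43.6% and 43.5% of all tested genes called higher in brain and in uterus. The median log2 fold change of the 17 was -1.53. Dagla, the diacylglycerol lipase of endocannabinoid synthesis, was 125.7 ± 9.54 CPM in brain and 10.5 ± 1.41 in uterus, and Pla2g4e, a relative of Pla2g4a, was 7.02 ± 0.393 and 0.135 ± 0.0778. Against this, the secreted phospholipase Pla2g10 was 13.4 ± 3.95 CPM in uterus and 0.134 ± 0.0835 in brain (log2 fold change 6.58 ± 0.38).

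Of 7 genes for transport and later breakdown other than Hpgd, 4 were higher in uterus, 2 in brain and 1 (Slco4a1, at 8.48 CPM in brain and 5.33 in uterus) did not pass, with a median log2 fold change of 1.40. Slco2a1, the transporter that takes prostaglandins up for breakdown, was 61.8 ± 10.3 CPM in uterus against 5.72 ± 1.07 (3.43 ± 0.16), and Abcc4, an exporter, 68.8 ± 6.71 against 18.2 ± 1.92. Ptgr1, a prostaglandin reductase, was 25.6 ± 4.44 against 1.68 ± 0.245. Slco3a1 was higher in brain, at 53.8 ± 2.92 against 20.9 ± 2.86 CPM. Ptgr2, a further reductase, was 56.2 ± 2.89 CPM in brain and 45.9 ± 5.01 in uterus (-0.29 ± 0.08). It was not called under upper-quartile scaling (-0.04) or library-size scaling (-0.04).

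Of 9 prostanoid receptors, 7 were called higher in uterus and 0 in brain, and Ptger1 and Ptgdr did not pass, beside 43.5% and 43.6% of all tested genes called in each direction. The largest log2 fold changes were those of the prostaglandin E receptors Ptger2 (6.25 ± 0.33) and Ptger4 (4.84 ± 0.13) and the prostacyclin receptor Ptgir (4.75 ± 0.37). Of the receptors of prostaglandin D, Ptgdr was 1.19 ± 0.199 CPM in brain and 1.12 ± 0.654 in uterus, with organs that overlapped. The other, Ptgdr2, was called higher in uterus, at 0.0582 ± 0.0696 CPM in brain and 1.46 ± 0.417 in uterus (SD, n = 4; edgeR adjusted p = 5.1e-05); it was named after its values were seen.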

How the data were processed

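RNA of 4 maternal brains and 4 uteri was read from the deposited table of raw counts. Per the submitters' processing notes, the authors used FastQC, HISAT2 2.0.3, featureCounts and edgeR on GRCm38.p5, and per the labels' protocols the kit was stranded and removed ribosomal RNA. Which annotation release and strand setting were used, and how multi-mapping reads were counted, is not given in the sources used here. Whole-number counts were deposited for 19884 genes with no normalization.

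The filter filterByExpr kept 16074 genes. The organs were tested against each other in edgeR 4.0.16 (R 4.3.3) by the quasi-likelihood F test, two-sided, with TMM scaling and Benjamini-Hochberg adjustment over all tested genes at 0.05. A second test on that fit, glmTreat, asked for more than a 2-fold change. Log2 fold changes are uterus over brain, and SE is the unshrunken value divided by the square root of F. Ratios within a library used counts plus 0.5 and an exact permutation test over 70 assignments. Exon lengths and coordinates came from GENCODE M21 on GRCm38, in which 19808 identifiers were found. Copies of transcripts were searched with BLAST+ 2.17.0 at 98% identity over at least 150 bases. Alternatives were other scalings, filters and thresholds, DESeq2 1.42.0, limma-voom (limma 3.58.1), a block for replicate number, and leaving out libraries. The fit was tested on simulated counts in which few, well-counted genes changed, equally in both directions, and it recovered most of those changes. That simulation does not cover organs in which most genes differ, nor the choice of scaling. The SD and SE take in the spread between libraries. Reads had no molecular identifiers, so that duplicate reads could not be told from separate molecules.

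The 10 genes, the gene lists and the tests were chosen with earlier results of these data known. All 10 genes are named. From each other list the text names 3 called genes, those of largest log2 fold change whose higher organ reached 1 CPM, and up to 2 that went against most of the list and reached 10 CPM, and a gene is also named where a count of 5 or fewer needs it. Genes of like pattern were those with the smallest root mean square difference in centred log2 CPM. Labels number 4 libraries per organ and do not name the mouse of a uterus. Each library of an organ was taken as a separate mouse, and p-values measure the spread between these libraries.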

Additional observations from a re-analysis of the deposited data

Results flagged for a closer look

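Within an organ, 30 groups of 4 values were examined for a library that lies far from the other 3, and 2 were found. Chance gives about 1 in 20 such groups. Ptgs1 in uterus was 38.2 CPM in library 4, against 30.6 to 31.3 CPM in the other 3. Pla2g4a in brain was 7.37 CPM in library 1, against 6.24 to 6.39 CPM in the other 3. Pla2g4a in uterus library 4, at 104 CPM, did not meet this criterion.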

How the results depend on the processing

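Of the 10 genes, 9 kept their direction and their call in all 19 settings tried. Ptgs2 kept its direction in all 19 and its call in 15. It was not called with upper-quartile scaling (-0.61), with library-size scaling (-0.61) or at an adjusted p threshold of 0.01 (-0.87, adjusted p = 0.0146), and leaving out single libraries gave -1.08 to -0.68, with no call without brain library 1 (-0.68). Over its settings the adjusted p ran from 0.00136 (DESeq2) to 0.0601. Brain and uterus libraries of the same number correlated at -0.17, -0.17, 0.12 and 0.10 in their deviations from organ means over 11519 genes. Brain library 1 correlated best with uterus library 2 (0.30). Such correlations cannot decide whether libraries of the same number share a mouse, since different organs of a mouse need not deviate alike. A replicate block changed no call of the 10 genes (Ptgs2 -0.90, adjusted p = 0.0352).

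The ratios within a library kept their direction in all settings. With libraries left out or with a replicate block, the exact permutation test cannot pass 0.05. Its smallest p is 0.0571 for 3 libraries against 4, 0.2 for 3 against 2, and 0.125 for 4 pairs. Leaving out single libraries gave 2.16 to 2.42 for Ptgs1 to Ptgs2, 2.78 to 2.98 for Ptges to Ptges2, 1.25 to 1.47 for Ptgis to Ptges and -12.83 to -12.06 for Ptgds to Hpgds. Without brain library 1 and uterus libraries 2 and 4 they were 2.18, 3.11, 1.23 and -12.06, and with a replicate block 2.29, 2.86, 1.40 and -12.54, in the same order.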

Other observations

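The lipoxygenase branch, which uses arachidonic acid for other products, had 6 of 10 genes called higher in uterus and 4 in brain (edgeR, adjusted p of 0.05), beside 43.5% and 43.6% of all tested genes, and a median log2 fold change of 1.11. Alox15, the 12/15-lipoxygenase, was 670 ± 197 CPM in uterus and 0.134 ± 0.137 in brain (SD, n = 4; log2 fold change 12.21 ± 0.46), a higher CPM than that of any of the 10 prostaglandin enzymes in uterus. Alox12e was 48.5 ± 12.8 CPM in uterus and 0.102 ± 0.0603 in brain, while Alox12b was 3.58 ± 1.07 in brain and 0.0127 ± 0.0254 in uterus.

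Genes were also ranked by how closely their profile over the 8 libraries followed each enzyme, as the root mean square difference of log2 CPM centred on the gene's mean. For Pla2g4a the nearest were Ammecr1 (0.095), Ngfr (0.16) and Il4ra (0.17), and for Hpgds they were Arg2 (0.19), Emb (0.24) and Jak2 (0.24). For Ptgs2 no gene was within 0.25, and the nearest were Cdkn1a (0.251), Pparg (0.26) and Hhip (0.28). For Ptgds the nearest were Gabbr2 (0.14), Cacng2 (0.28) and Slc24a2 (0.29). In uterus these 3 stood at 0.151, 0.0117 and 0.447 CPM. At such levels the prior count of 2 used for log2 CPM narrows differences between genes. For Ptgis the nearest were Chst14 (0.063), Msrb3 (0.072) and Emcn (0.075). For Ptgs1, Ptges, Ptges2, Ptges3 and Hpgd, 316 to 2100 genes were within 0.25, so that their nearest genes (Dclre1a, Pdpn, Smpd4, Maf and Plekha4) stand for many. These values describe 8 libraries of 2 organs and follow the difference between the organs for the most part.

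Of the 10 genes, 5 lie on chromosome 2 (Ptgs1, Ptges, Ptges2, Ptgis and Ptgds). Of these 3 were called higher in uterus and 2 in brain, beside 43.5% and 43.6% of all tested genes.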
